A study of Mus musculus with 10 samples.

Results

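Glycine transmission genes are the 8 genes Slc6a5, Slc6a9, Glra1, Glra2, Glra3, Glrb, Gphn and Gldc, out of 54532 genes in the count table of mouse brain RNA. They were picked by symbol from known function, and the set was chosen with the differences between libraries whose name holds the digit 3 and those whose name holds the digit 1 already known, so their fold changes between the digits are a description and not a test. All 8 symbols were found in the table, and all 8 passed the filter on low counts in each comparison below.

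Every mouse was a Slc20a2 homozygous (HO) knockout carrying the tm1a(EUCOMM)Wtsi allele, so the genotype is shared by treated and control animals and no wild-type library was analysed here. FTY720, a modulator of sphingosine-1-phosphate receptors, was injected intraperitoneally in DMSO at 0.5 mg/kg from an age of 1.5 months for 12 weeks, and placebo mice received DMSO alone. The name of each library starts with F (FTY720) or P (placebo), followed by the digit 1 or 3 and a mouse number. FTY720 with digit 1 had 3 libraries (F1-622, F1-624, F1-918), placebo with digit 1 had 1 library (P1-623), FTY720 with digit 3 had 3 libraries (F3-609, F3-612, F3-908) and placebo with digit 3 had 3 libraries (P3-612, P3-904, P3-907). The meaning of the digit is not given in the sources used here, and the tissue is labelled only as brain. By the study's methods the RNA came from 50% of each perfused brain, the remainder being fixed, and which side or region it was is not given. Counts summed to between 14772745 and 18303981 per library. Slc20a2 itself was read at 6.27 to 9.35 CPM (counts scaled to the library size) with digit 1 and at 11.6 to 16.9 CPM with digit 3, which does not check the knockout without a wild-type library. Exons of Slc20a2 overlap Smim19 on the opposite strand, read at 28.3 to 39.5 CPM with digit 1 and 22.7 to 34.7 CPM with digit 3. The library kit is not named as strand-specific, so reads of that overlap cannot be assigned. By the study's methods each library is 1 mouse, so p-values measure the spread between mice; the number 612 occurs in an FTY720 and in a placebo library.

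Glycine is the main fast inhibitory transmitter of the brainstem and spinal cord. Glycinergic neurons take it up through GlyT2 (Slc6a5), astrocytes and some glutamatergic neurons remove it through GlyT1 (Slc6a9), and it opens chloride channels built from alpha subunits (Glra1, Glra2, Glra3) and the beta subunit (Glrb), which gephyrin (Gphn) anchors below the synapse. The glycine decarboxylase Gldc breaks glycine down in the mitochondria of astrocytes. Glycine is also a co-agonist of the NMDA receptor, a glutamate-gated channel.

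Sequence before the first RefSeq start of Slc6a5 and of Glrb is shown because these genes lie at opposite ends of the data described below, Slc6a5 almost unread in the digit 1 libraries and Glrb the steadiest of the set among digit 3 libraries. Both are RefSeq sequences on GRCm38.p6, 5′ to 3′ in the direction of the gene, with each CG dinucleotide (the same on both strands) in capitals. The Slc6a5 stretch is chr7:49910049-49910145, plus strand, 97 bases that end where the counted gene begins, and the Glrb stretch is chr3:80913661-80913910, minus strand, 250 bases.

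Slc6a5: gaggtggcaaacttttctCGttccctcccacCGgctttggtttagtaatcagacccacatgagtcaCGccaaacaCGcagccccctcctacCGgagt

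Glrb: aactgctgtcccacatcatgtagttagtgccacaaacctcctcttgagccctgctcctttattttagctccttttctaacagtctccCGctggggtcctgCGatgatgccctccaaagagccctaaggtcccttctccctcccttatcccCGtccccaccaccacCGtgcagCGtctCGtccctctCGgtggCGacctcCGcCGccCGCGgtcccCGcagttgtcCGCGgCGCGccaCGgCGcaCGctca

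The printed stretches hold 5 CG (Slc6a5) and 20 CG (Glrb). Over the full 250 bases before its RefSeq start, Slc6a5 held 11 CG, against a median of 6 over 32851 windows of that length in the table. At least 11 CG were present in 35.6% of all windows and at least 20 in 17.9%. The first starts of the other matched genes held 34 CG (Gphn, a count reached by 3.52% of windows), 9 (Slc6a9), 8 (Glra2 and Gldc) and 4 (Glra3), and Glra1 had no entry. This is a description of letters only.

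Slc6a5 (chromosome 7, 49910146 to 49963856, plus strand, GRCm38, ENSMUSG00000039728) loads glycinergic terminals with glycine and is a defining gene of glycinergic neurons. Its counts were 4, 9 and 2 in F1-622, F1-624 and F1-918 and 8 in P1-623. With digit 3 they were 1011, 795 and 805 in F3-609, F3-612 and F3-908 and 681, 1081 and 858 in P3-612, P3-904 and P3-907. The lowest digit 3 library, at 40.6 CPM, lay far above the highest digit 1 library, at 0.535 CPM, and the digit groups did not overlap. The digit 3 libraries held 5231 Slc6a5 counts in all and the digit 1 libraries 23, a ratio of 147 per total count with an exact 95% interval of 97.6 to 231, which covers counting error only. In bulk tissue, more cells of a type and more RNA per cell cannot be told apart.

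Slc6a9 (chromosome 4, 117834506 to 117875198, plus strand, ENSMUSG00000028542) clears glycine from the synaptic cleft and sets its level near NMDA receptors. It was read at 18.7, 31.6 and 31.7 CPM in F1-622, F1-624 and F1-918 and at 25.8 CPM in P1-623. With digit 3 it was read at 30.8, 33.0 and 27.8 CPM in the FTY720 mice 609, 612 and 908 and at 26.6, 46.7 and 38.8 CPM in the placebo mice 612, 904 and 907. The digit groups overlapped, and P3-904 and P3-907 were the highest libraries. Exons of Slc6a9 overlap 3 genes on the opposite strand, of which B4galt2 was read at 38.7 to 89.6 CPM; the library kit is not named as strand-specific, so reads of the overlap cannot be assigned. Per length, in depth-scaled fragments per kilobase (FPKM), Slc6a5 took 0.271% to 1.42% of the summed level of both transporters with digit 1 and 45.9% to 58.4% with digit 3.

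Glra1 (chromosome 11, 55514238 to 55608198, minus strand, ENSMUSG00000000263) encodes the alpha 1 subunit of the adult brainstem and spinal cord receptor, whose loss causes startle disease. Its counts were 6, 21 and 13 in F1-622, F1-624 and F1-918 and 9 in P1-623. With digit 3 they were 93, 85 and 48 in F3-609, F3-612 and F3-908 and 22, 206 and 76 in P3-612, P3-904 and P3-907. Every digit 3 library was above every digit 1 library in CPM, but the gap was small: P3-612 stood at 1.31 CPM and F1-624 at 1.25 CPM. The ratio per total count was 6.97 (exact 95% interval 5.20 to 9.54, counting error only; 530 against 49 counts). The antisense gene Gm12236, which shares exon sequence with Glra1, had at most 2 counts in any library.

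Glra1 was also the member that differed most among digit 3 libraries, with P3-904 at 11.9 CPM and P3-612 at 1.31 CPM, both placebo. Its highest-to-lowest ratio was 9.04, against a median of 1.5 over the 15898 genes with at least 10 counts in each of the 6 libraries. Only 8 genes, Glra1 included, had a ratio that large. The 7 others, listed after their values were seen, were the globin genes Hba-a1 and Hbb-bs, Lcn2, Entpd4b, Gapdh, Gm18194 and Xlr3b. Of these 7 genes, Entpd4b alone had its highest level in P3-904, and Gm18194 alone its lowest in P3-612, as Glra1 did; the globin genes were highest in P3-612, where Hba-a1 was read at 13.2 CPM against 0.692 CPM in P3-904. The same ratio was 1.53 for Slc6a5, 1.76 for Slc6a9 and 1.32 for both Glra2 and Glra3. Glrb, at 1.13, was among the steadiest genes, 97.3% of all genes having a ratio at least that large.

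Glra2 (chromosome X, 165129017 to 165327393, minus strand, ENSMUSG00000018589) encodes the alpha 2 subunit, known as the main form of the immature brain. It was read at 19.5, 21.9 and 17.8 CPM in F1-622, F1-624 and F1-918 and at 17.9 CPM in P1-623. With digit 3 it was read at 18.3, 16.2 and 16.3 CPM in the FTY720 mice 609, 612 and 908 and at 16.4, 13.9 and 16.3 CPM in the placebo mice 612, 904 and 907. F3-609 lay within the digit 1 range and the other 5 digit 3 libraries lay below it. Glra3 (chromosome 8, 55940460 to 56130070, plus strand, ENSMUSG00000038257), the alpha 3 subunit known from spinal pain circuits and the retina, ranged from 17.6 to 23.5 CPM with digit 1 (median 22.2) and from 17.1 to 22.6 CPM with digit 3 (median 20.05), and the groups overlapped.

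The makeup of the alpha subunit transcripts differed with the digit while their sum overlapped. Summed over the 3 alpha genes, FPKM was 7.76 to 9.83 with digit 1 and 7.73 to 11.5 with digit 3. Glra2 took 68.5% to 72.5% of that sum with digit 1 and 38.2% to 66.2% with digit 3. Glra1 took 1.97% to 5.16% with digit 1 and 6.91% to 42.6% with digit 3, the lowest digit 3 share being that of P3-612 and the highest that of P3-904. In P3-904 the level of Glra1, 4.89 FPKM, was above that of Glra2, 4.38 FPKM, and in the other 9 libraries it was below. Glra3 took 24.4% to 28.6% and 19.2% to 26.9%, and its groups overlapped.

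**Figure D1:**
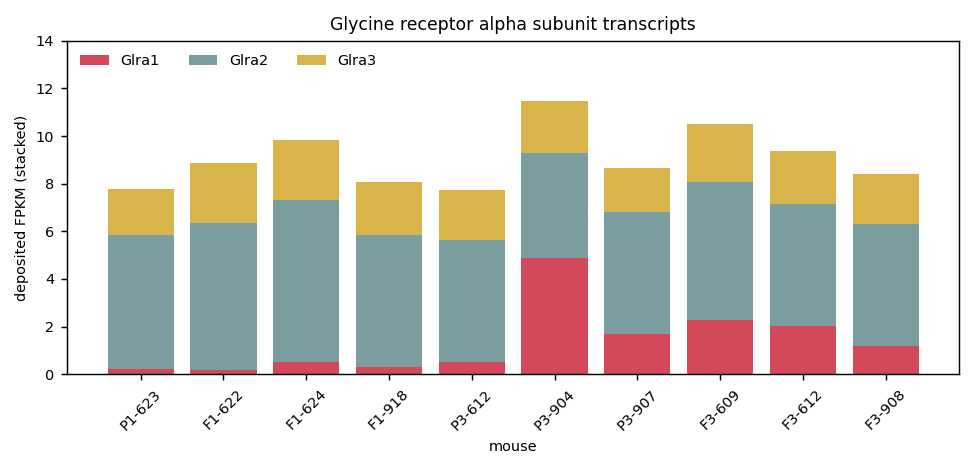
Stacked bars of the deposited FPKM of Glra1, Glra2 and Glra3, 1 bar per mouse, with the digit 1 libraries on the left and the digit 3 libraries on the right. Glra1 is a thin band of at most 0.507 FPKM in the digit 1 libraries and reaches 4.89 FPKM in P3-904, where it is the largest of the 3 bands, while Glra2 is the largest in each of the other 9 libraries.

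Glrb (chromosome 3, 80843599 to 80913660, minus strand, ENSMUSG00000028020), the subunit that ties the receptor to gephyrin, was the most abundant of the 8 genes per length in every library. It was read at 305, 270 and 256 CPM in F1-622, F1-624 and F1-918 and at 224 CPM in P1-623. With digit 3 it was read at 344, 310 and 319 CPM in the FTY720 mice 609, 612 and 908 and at 322, 303 and 304 CPM in the placebo mice 612, 904 and 907. P1-623 was the lowest library and F1-622 fell within the digit 3 range. In FPKM, Glrb was 5.79 to 7.37 times the alpha sum with digit 1 and 5.64 to 8.80 times with digit 3.

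Gphn (chromosome 12, 78226379 to 78684772, plus strand, ENSMUSG00000047454), the scaffold of glycine and GABA-A receptors and an enzyme of molybdenum cofactor synthesis, was read at 71.4, 63.4 and 62.7 CPM in F1-622, F1-624 and F1-918 and at 61.7 CPM in P1-623. With digit 3 it was read at 83.5, 83.1 and 77.1 CPM in the FTY720 mice 609, 612 and 908 and at 73.6, 77.4 and 69.2 CPM in the placebo mice 612, 904 and 907. F1-622 and P3-907 overlapped, and the other digit 1 libraries lay below all digit 3 libraries. The ratio of Glrb to Gphn in FPKM was 2.92 to 3.44 with digit 1 and 3.01 to 3.53 with digit 3. Gphn shares exon sequence with Gm48226 on the other strand, which was read at 6.18 to 9.69 CPM.

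Gldc (chromosome 19, 30098449 to 30175418, minus strand, ENSMUSG00000024827) was read at 23.8, 31.5 and 34.5 CPM in F1-622, F1-624 and F1-918 and at 34.6 CPM in P1-623. With digit 3 it was read at 24.2, 24.1 and 19.5 CPM in the FTY720 mice 609, 612 and 908 and at 25.1, 27.1 and 26.2 CPM in the placebo mice 612, 904 and 907. F1-622 fell within the digit 3 range and the other digit 1 libraries lay above it. In FPKM, Gldc was 1.36 to 1.84 times Slc6a9 with digit 1 and 0.795 to 1.29 times with digit 3. These ranges of an RNA ratio did not overlap, but F1-624 (1.36) and P3-612 (1.29) lay close, and each gene overlapped singly. The share of gene pairs whose ratio does not overlap was not computed. Of single genes, 13.7% did not overlap. Reads where Slc6a9 overlaps B4galt2 cannot be assigned, as given above.

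Ordered by mean FPKM, the digit 3 libraries gave Glrb (67.5 ± 3.23, SD, n = 6) and Gphn (20.4 ± 1.5), followed by Slc6a5 (6.97 ± 1.22), Slc6a9 (6.55 ± 1.48), Gldc (6.44 ± 0.707) and Glra2 (5.10 ± 0.442), and then by Glra3 (2.15 ± 0.198) and Glra1 (2.10 ± 1.5). Glrb and Gphn were clear of their neighbours by more than their spread, the ranges of Slc6a5, Slc6a9, Gldc and Glra2 overlapped, and the wide range of Glra1 overlapped those of both Glra3 and Glra2. In the digit 1 libraries (n = 4) the order was Glrb (56.0 ± 7.38), Gphn (17.1 ± 1.29), Gldc (8.18 ± 1.31), Glra2 (6.04 ± 0.595), Slc6a9 (5.17 ± 1.14), Glra3 (2.29 ± 0.299), Glra1 (0.310 ± 0.144) and Slc6a5 (0.04997 ± 0.0273). Here the ranges of Gldc and Glra2 overlapped, as did those of Glra2 and Slc6a9, and the others were apart. Slc6a5 stood last with digit 1 and level with Slc6a9 with digit 3.

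**Figure D2:**
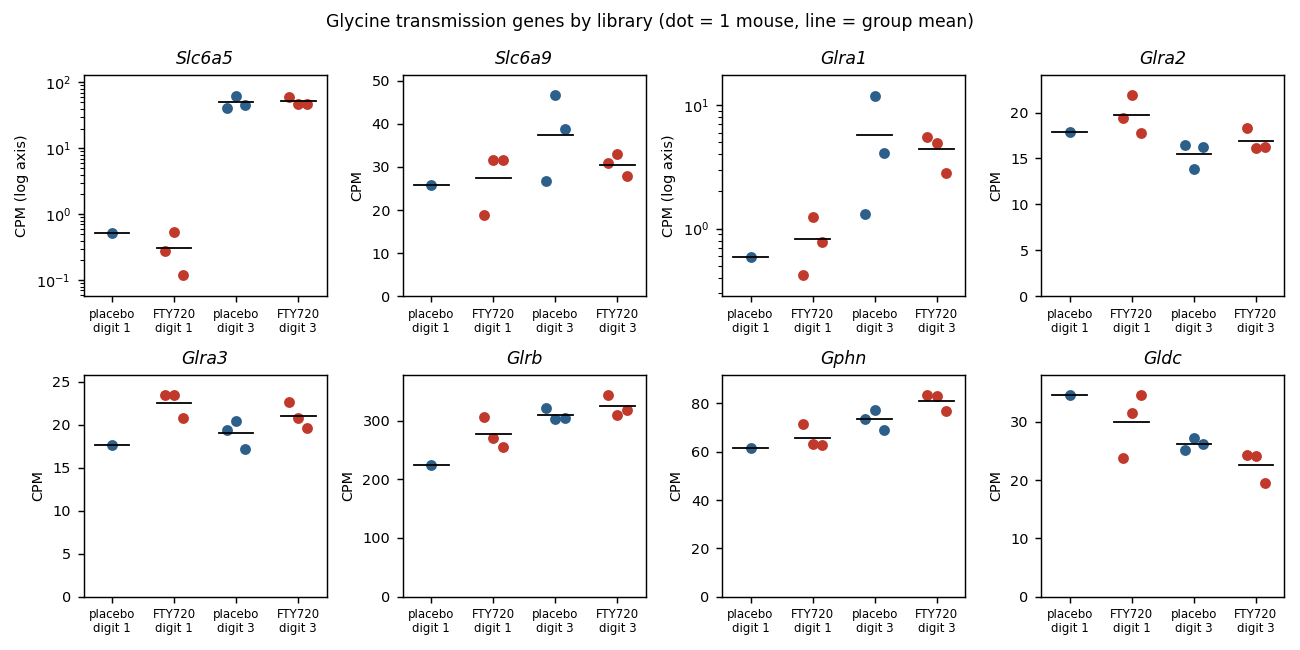
CPM of each gene in the 4 groups, with 1 dot per mouse and a line at the group mean, on log axes for Slc6a5 and Glra1 and on axes from 0 for the others. Slc6a5 stays at or below 0.535 CPM with digit 1 and above 40 CPM with digit 3, Glra1 spreads from 1.31 to 11.9 CPM among the placebo digit 3 mice, and the dots of the other 6 genes overlap between digits.

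In a fit over all 10 libraries with the treatment as a term, the log2 fold change of digit 3 over digit 1 was 7.09 (SE 0.27) for Slc6a5, 2.65 (SE 0.57) for Glra1, 0.30 (SE 0.089) for Glrb, 0.29 (SE 0.083) for Gphn and 0.28 (SE 0.19) for Slc6a9. It was -0.04 (SE 0.11) for Glra3, -0.22 (SE 0.11) for Glra2 and -0.41 (SE 0.12) for Gldc. Of the 8 genes, 4 were called higher (Slc6a5, Glra1, Glrb, Gphn) and 1 lower (Gldc) by edgeR's quasi-likelihood test at an adjusted p under 0.05, beside 26.6% of all 18785 genes tested (13.1% higher and 13.4% lower). The 8 genes were chosen with these differences known, so their calls are a description and not a test. Slc6a5, at 2 to 9 counts per digit 1 library, passed the low-count filter through the digit 3 libraries. The groups did not overlap for 2 of the 8 genes, Slc6a5 and Glra1, beside 13.7% of all genes. The median log2 fold change was 0.28 over the 8 genes and -0.0027 over all genes. Without P1-623, the only placebo library with digit 1, or without F1-918, the calls of Glrb, Gphn and Gldc were lost and 2 of the 8 genes were called, and without F1-624 or without F3-609 the number was 3.

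**Figure D3:**
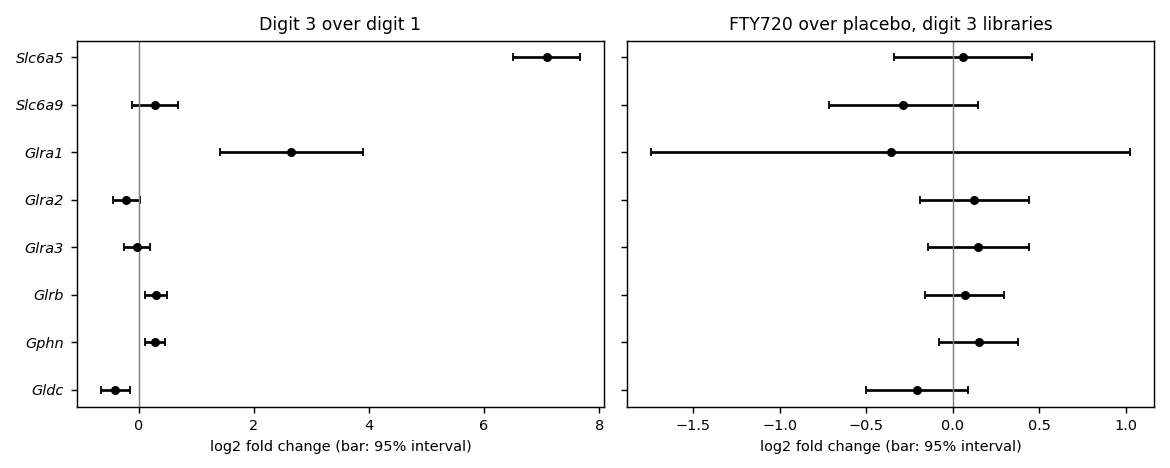
Log2 fold change of the 8 genes with its 95% interval, for digit 3 over digit 1 in the left panel and for FTY720 over placebo among digit 3 libraries in the right panel; the axes differ in scale. Slc6a5 (7.09) and Glra1 (2.65) stand apart on the left, and every interval on the right spans 0, the widest being that of Glra1.

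Markers of brain regions moved with the digit, and their part in these values was not tested. All 12 cerebellar markers were higher with digit 3 and passed the test, their summed level being 333 to 404 CPM with digit 1 and 1804 to 1998 CPM with digit 3. All 12 forebrain markers had lower values, 10 of them past the test, with sums of 831 to 951 CPM and 486 to 708 CPM. Of the 12 hindbrain markers 10 were tested, 9 of them higher and Egr2, also an activity-induced gene, lower, and 8 were at 0 counts in all digit 1 libraries. Summed with Egr2, these markers were at 5.99 to 16.8 CPM with digit 1 and 14.8 to 22.9 CPM with digit 3. The 11 without Egr2, a set made after its level was seen, summed to 0.0595 to 0.483 CPM with digit 1 and 11.7 to 17.8 CPM with digit 3. Cell type marker sums overlapped between the digits, while single astrocyte and neuron markers were called in both directions beside the 26.6% of all genes called: the astrocyte sums were 5326 to 5881 CPM and 5070 to 5809 CPM (3 of 12 higher and 1 lower), the neuron sums 6750 to 7405 CPM and 6695 to 6966 CPM (2 of 10 higher and 2 lower), and the oligodendrocyte sums 5819 to 6831 CPM and 5810 to 7767 CPM (1 of 10 lower).

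Other genes of glycine metabolism and signalling were described from 4 lists, beside the same shares of all genes called (13.1% higher, 13.4% lower) with digit 3. The lists were chosen with earlier results of these data known, so their adjusted p-values between the digits are a description. On the list for the NMDA receptor glycine site, 3 of 10 genes rose and 2 fell, with a median log2 fold change of -0.07. Dao, the D-amino acid oxidase that degrades the co-agonist D-serine, rose by 5.12 on the log2 scale (edgeR adjusted p 2.47e-09), from 0.362 to 0.520 CPM with digit 1 to 12.7 to 18.1 CPM with digit 3. Grin3b, a receptor subunit that binds glycine, rose by 1.35 (adjusted p 0.0120) and Grin2c, a subunit typical of cerebellar granule cells, by 0.94 (adjusted p 0.000146). Slc1a4, a neutral amino acid carrier that moves serine, fell by 0.49 (adjusted p 0.000868). Grin1, the obligatory receptor subunit, which holds the main glycine site, also fell by 0.49 (adjusted p 0.00192), from a mean of 389 ± 46.7 CPM with digit 1 (SD, n = 4) to 290 ± 31.8 CPM with digit 3 (n = 6); it is named beyond the 4 largest changes, after its values were seen. Grin3b, by contrast, was read at a mean of 0.392 CPM with digit 1 and 1.06 CPM with digit 3.

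On the list for glycine synthesis and cleavage, 13 of 14 genes were tested, 1 rose, 1 fell and the median was -0.07. Phgdh, which starts serine synthesis, fell by 0.50 (edgeR adjusted p 0.0102), and Gatm, which uses glycine to make the creatine precursor, rose by 0.27 (adjusted p 0.0343). On the list for the glycine synapse, 1 of 12 genes rose, 3 fell and the median was 0.04. Slc6a20a, a proline and glycine carrier, rose by 0.53 (adjusted p 0.0161), while the dynein light chains Dynll1 and Dynll2, which bind gephyrin, fell by 0.79 (adjusted p 0.0122) and 0.32 (adjusted p 0.0293). Slc32a1, the vesicular carrier that fills inhibitory vesicles with glycine or GABA, fell by 0.31 (edgeR adjusted p 0.0240). Its digit groups overlapped, at 122 to 157 CPM with digit 1 and 99.6 to 139 CPM with digit 3. The digit groups of Phgdh, Dynll1 and Dynll2 overlapped too. Of 4 molybdenum cofactor genes 1 fell, Mocs3 by 0.53 (edgeR adjusted p 0.0422) with overlapping digit groups, and the median was -0.03.

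FTY720 was compared with placebo among the 6 digit 3 libraries, where both treatments had 3 mice. None of the 8 genes was called at an adjusted p under 0.05, beside 0% of the 17656 genes tested by edgeR, and none had an unadjusted p under 0.05, beside 7.27% of all genes (1283, of which 490 higher and 793 lower with FTY720). DESeq2 called 5 genes in all and none of the 8. The median log2 fold change was 0.06 over the 8 genes and -0.0049 over all genes. An exact permutation test over the 20 splits of 3 and 3 mice cannot give a p under 0.1.

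Slc6a5 was at 51.5 ± 7.78 CPM with FTY720 and 49.7 ± 11.3 CPM with placebo (SD, n = 3 each). The log2 fold change was 0.06 with a 95% interval of -0.34 to 0.46 (edgeR adjusted p 0.927, exact permutation p 0.7). Its sign turned to -0.08 without F3-609 and to -0.06 without P3-612. Slc6a9 averaged 30.5 ± 2.60 CPM with FTY720 and 37.4 ± 10.1 CPM with placebo (log2 fold change -0.29, interval -0.72 to 0.14), and P3-612 lay below all FTY720 mice. Slc6a5 made up 54.5% of the summed transporter FPKM on average with FTY720 and 48.9% with placebo (two-sided exact permutation p 0.2).

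Glra1 was at 4.46 ± 1.43 CPM with FTY720 and 5.76 ± 5.48 CPM with placebo. Its log2 fold change was -0.36, with an interval of -1.74 to 1.03. The placebo mice enclosed the FTY720 mice on both sides, and without P3-904 the value was 0.71, of opposite sign, so no direction can be given. Glra1 made up 19.2% of the alpha FPKM on average with FTY720 and 23.0% with placebo (exact permutation p 0.9). For Glra2 the log2 fold change was 0.13 (-0.19 to 0.44), for Glra3 0.15 (-0.14 to 0.44), for Glrb 0.07 (-0.16 to 0.30) and for Gphn 0.15 (-0.077 to 0.38), and the groups overlapped for each of them.

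For 1 of the 8 genes, Gldc, the FTY720 and placebo mice did not overlap, beside 13.1% of all genes. It was read at 22.6 ± 2.72 CPM with FTY720 and 26.2 ± 1.01 CPM with placebo, and F3-609, the highest FTY720 mouse at 24.2 CPM, was just below P3-612 at 25.1 CPM. The log2 fold change was -0.21 (95% interval -0.50 to 0.087, edgeR adjusted p 0.671, exact permutation p 0.1, the smallest possible). These intervals leave room for changes of up to about the size of their bounds, so the comparison does not show equal levels.

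None of the genes on the 4 lists was called with FTY720 either, and 4 of the 38 tested (10.5%, beside 7.27% of all genes) had an unadjusted p under 0.05, all with an edgeR adjusted p of 0.654. The FTY720 and placebo mice did not overlap for 9 of the 38 (23.7%), beside 13.1% of all genes. Slc32a1 was at 99.6, 106 and 114 CPM in F3-609, F3-612 and F3-908 and at 139, 121 and 138 CPM in P3-612, P3-904 and P3-907, and was 1 of these 9; its log2 fold change was -0.31 (SE 0.11). The value was -0.46 (SE 0.16) for Dynll1, -0.34 (SE 0.12) for Dynll2 and -0.59 (SE 0.25) for Mocs3. The list medians were -0.18 for the glycine synapse (11 tested), -0.11 for the NMDA receptor glycine site, -0.05 for synthesis and cleavage and 0.05 for the molybdenum cofactor.

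**Figure D4:**
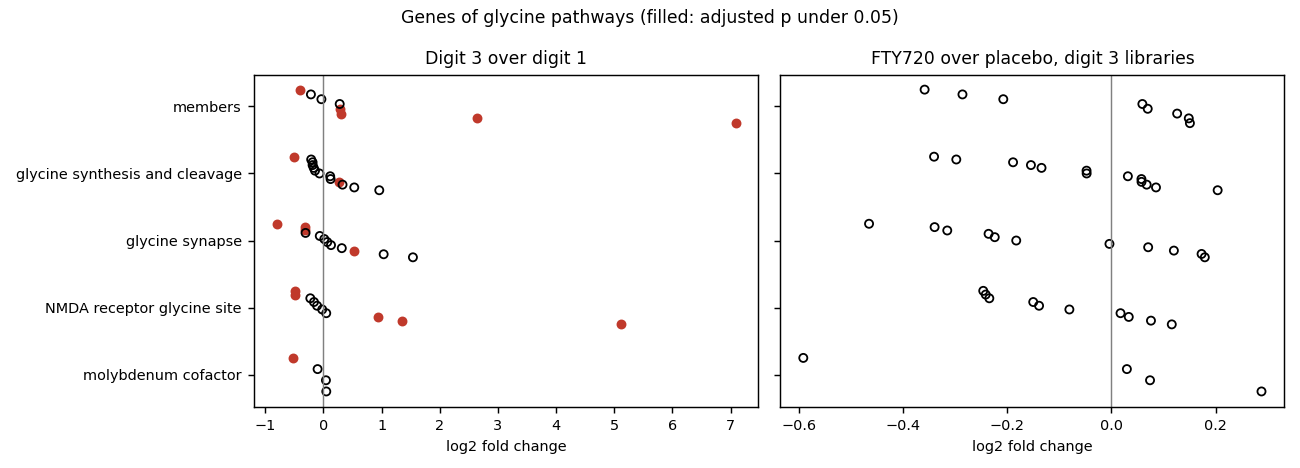
Log2 fold changes of the tested genes of the 8-gene set (members) and of the 4 other lists, 1 dot per gene, filled where the edgeR adjusted p is under 0.05, for digit 3 over digit 1 on the left and FTY720 over placebo on the right. Slc6a5 (7.09) and Dao (5.12) lie farthest to the right in the left panel, and no dot is filled in the right panel.

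Oligodendrocyte, hindbrain and cerebellar marker sums did not overlap between treatments among digit 3 libraries, and their part in these values was not tested. No marker was called, but all 10 oligodendrocyte markers had lower values with FTY720, 6 of them at an unadjusted p under 0.05 (beside 7.27% of all genes), and their sums were 5810 to 6003 CPM against 6730 to 7767 CPM. Of the 12 hindbrain markers 9 were tested, all 9 with lower values (3 at an unadjusted p under 0.05), and the sums over all 12 were 14.8 to 16.5 CPM against 18.6 to 22.9 CPM. All 12 forebrain markers had lower values (1 at an unadjusted p under 0.05), but their sums overlapped (486 to 605 CPM against 587 to 708 CPM). The 12 cerebellar markers were mixed, 8 with higher values, 2 of them at an unadjusted p under 0.05, and 4 with lower values (Cbln1, Fat2, Pcp2 and En2), and their sums were 1929 to 1998 CPM with FTY720 and 1804 to 1881 CPM with placebo. Astrocyte sums were 5070 to 5499 CPM and 5128 to 5809 CPM and neuron sums 6695 to 6848 CPM and 6795 to 6966 CPM, and both overlapped; 2 neuron markers were lower at an unadjusted p under 0.05 and no astrocyte marker passed it.

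Whether the FTY720 difference itself differed between the digits was asked by an interaction term over all 10 libraries, with P1-623 as the only placebo library of digit 1 assumed to vary like the others. None of the 8 genes was called, beside 0% of 19954 genes by edgeR and by limma-voom, and none had an unadjusted p under 0.05, beside 2.09% (418 genes). The interaction was 0.76 (SE 0.75) for Slc6a5, -0.87 (SE 1.34) for Glra1 and -0.38 (SE 0.39) for Slc6a9, and lay between -0.24 and 0.05 for the other 5 genes.

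The genes whose log2 CPM followed a member most closely over the 10 libraries were listed for 5 of the 8 genes. They were drawn from 14044 protein-coding genes, with Pearson's r as a description. The digits make up much of the spread of Slc6a5, while the digit groups overlapped for Slc6a9, Glra2 and Gldc. Glra1 ranged from 1.31 to 11.9 CPM among the digit 3 libraries alone. For Slc6a5 the closest genes were Il20rb (r = 0.995), Aqp6 (0.995) and Arhgef33 (0.994). Aqp6 was read at 0.121 to 0.535 CPM with digit 1 and 8.02 to 11.1 CPM with digit 3. For Glra1 the closest genes were Fat1 (0.991), Sned1 (0.989) and Myo19 (0.985). Sned1 was read at 4.30 to 8.20 CPM with digit 1 and 8.89 to 34.8 CPM with digit 3. For Slc6a9 the closest genes were Adamts4 (0.969), Zcchc24 (0.968) and Cacng2 (0.967). Those of Glra2 were Prokr2 (0.973), Gabra5 (0.945) and Vkorc1 (0.928), and those of Gldc were Zfp853 (0.950), Fam163a (0.941) and Sec14l2 (0.934).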

How the data were processed

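Total RNA of mouse brain was sequenced in 10 libraries. The count table, deposited by the authors, gives raw whole-number counts for each gene in each library. The FPKM values beside it were derived by the authors from counts, gene length and a library size that differs from the plain total of the counts. The submitters' processing notes name CASAVA 1.8, fastp, HISAT2 2.0.5, featureCounts 1.5.0-p3 and DESeq2 1.20.0, and GRCm38 (mm10); the strand setting of the counting is not given in the sources used here.

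The quasi-likelihood test of edgeR 4.0.16 was run in R 4.3.3 on counts kept by filterByExpr and scaled by TMM, with Benjamini-Hochberg adjustment over all genes tested. Digit 3 was compared with digit 1 over 10 libraries with treatment as a term, FTY720 with placebo over the 6 digit 3 libraries, and the interaction over 10 libraries. Mean log2 CPM (prior count 2) or FPKM ratios were compared by two-sided exact permutation. FPKM served for levels and ratios between genes and for the alternatives named below. Intervals of count ratios are Clopper-Pearson at 95%. Totals of 14772745 to 18303981 counts (median 16653895) make counting error matter mainly for Slc6a5 and Glra1 in digit 1 libraries.

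The genes and lists were chosen with earlier results of these data known. All 8 genes were named; list genes were named at an adjusted p under 0.05 for the digits (at most 4 per list) or an unadjusted p under 0.05 for FTY720, and for likeness the 3 protein-coding genes with the highest r. Where 2 rows carried a symbol (Gcat), the protein-coding row was used. Promoter windows came from RefSeq (7 of 8 genes matched). The scripts were tested on simulated data. Alternatives were DESeq2 1.42.0, limma 3.58.1 (voom, and log2 of FPKM plus 0.1 or 1), other scalings, filters and terms, and each library left out.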

Additional observations from a re-analysis of the deposited data

How the results depend on the processing

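Of 406 values of the 8 genes recomputed under an alternative, 367 kept their direction and their side of the threshold, 19 lost a call and 20 changed sign; the cause was not tested. Slc6a5 and Glra1 stayed called between the digits wherever they were tested, with log2 fold changes as low as 2.92 and 1.12 on log2(FPKM + 1). Both were chosen with this difference known, so calls that stay in place add no support. The 19 lost calls were those of Glrb, Gphn and Gldc between the digits, where the number of the 8 genes called went from 5 to 3 with no filter on low counts, to 3 with at least 10 counts in every library (Slc6a5 and Glra1 then not being tested), to 2 with no treatment term, to 2 in FTY720 libraries only, and to 2 to 5 with a library left out. Over all genes the digit calls, 4988, became 3106 in FTY720 libraries only and 2593 to 6077 with a library left out (2593 without P1-623, 2860 without F3-609). For FTY720 within digit 3, DESeq2 called 5 genes and the fit with no filter 134, against 0 with any library left out, and the 1283 genes at an unadjusted p under 0.05 became 2340 with no filter, 765 with the leading digit of the mouse number as a term, 2269 over 10 libraries with the digit as a term, 461 over 10 libraries with no other term, and 388 to 3896 with a library left out (388 without F3-609, 399 without P3-907, 3896 without P3-904). Glra1 with FTY720 turned to 0.082 under limma-voom, 0.070 on log2(FPKM + 0.1), 0.12 with the leading digit as a term and ranged from -0.82 to 0.71 with a library left out; Slc6a5 turned to -0.53 over 10 libraries with no other term and ranged from -0.075 to 0.25. In the interaction, Gldc turned to 0.011 under RLE scaling and 0.00044 under limma-voom and ranged from -0.15 to 0.11 with a library left out, Glra2 from -0.10 to 0.060 and Glra1 from -1.33 to 0.20 (0.20 without P3-904), while the 418 genes at an unadjusted p under 0.05 became 269 to 598 (269 without P3-907). The interaction could not be fitted without P1-623, the only placebo library with digit 1. No paired analysis was possible because the mouse numbers do not tie FTY720 and placebo mice together in the sources used here. Depth limits mainly Slc6a5 (2 to 9 counts) and Glra1 (6 to 21 counts) in digit 1 libraries.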
